A study of Mus musculus with 10 samples.

Results

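Heterotrimeric G-protein alpha subunits were described in cardiomyocytes of mice with a Cre-induced knockout of Actn2, the gene of the Z-disc crosslinker alpha-actinin-2. The family comprised 10 genes of the 23337 in the table, found by symbol: Gnas of the Gs class, Gnao1, Gnai1, Gnai2, Gnai3 and Gnaz of the Gi/o class, Gnaq and Gna11 of the Gq/11 class, and Gna12 and Gna13 of the G12/13 class. In the knockout cells Gnao1 stood 13.3-fold higher than in the controls, Gnai1 was 1.49-fold higher, and Gna12 was at 0.676 of the control level. For Gna12 the values of the groups overlapped. The other 6 subunits with enough counts for the fit differed by at most 0.14 on the log2 scale, and Gnaz was close to the limit of detection. The family was selected on this same contrast, because Gnao1 was among its largest differences, so the values of all 10 genes are a description and carry no test.

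Poly(A) RNA was sequenced from sorted cardiomyocytes taken at postnatal day 14, with 5 biological replicates per group. Knockouts carried Actn2 F/F and controls Actn2 F/+, a heterozygote with 1 floxed and 1 normal allele. Both groups had received AAV9-cTNT-Cre at postnatal day 1, a virus in which the cardiac troponin T promoter drives Cre, so the controls share the virus and have themselves 1 allele open to recombination. Cells of both groups were released by retrograde collagenase perfusion and sorted by fluorescence. Total counts ran from 8086656 to 25237696 per sample. Actn2 stood at 1145 to 1286 CPM (counts relative to the scaled library total, the usual CPM unit) in the knockouts and at 2677 to 3474 CPM in the heterozygotes, with no overlap (log2 fold change -1.39). Cardiomyocyte markers such as Myh6, Tnnt2, Ryr2 and Pln were abundant in all 10 samples, with a summed level over 8 genes of 88893 to 112304 CPM in heterozygotes and 84079 to 108590 CPM in knockouts. Of the 8, 7 were fitted below 0 and 1 passed the threshold, Tnni3, which was lower in the knockout (log2 fold change -0.53, adjusted p = 0.00165). Endothelial markers, a sign of other cells in the sort, summed to 445 to 665 CPM in heterozygotes and 284 to 488 CPM in knockouts, with all 8 fitted lower in the knockout and 2 past the threshold. Immune markers summed to 12.6 to 36.01 CPM in heterozygotes and 7.91 to 11.1 CPM in knockouts, without overlap, and 1 of 4 tested, Csf1r, was lower (adjusted p = 0.0216). In such bulk samples, fewer cells of a type and less RNA per cell cannot be told apart.

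A G protein couples a receptor in the membrane to an enzyme or channel inside the cell. The receptor makes the alpha subunit exchange GDP for GTP, alpha and the beta-gamma dimer then act on their own targets, and the GTPase of alpha, sped up by RGS proteins, ends the signal. The alpha subunit sets the pathway: Gs stimulates adenylyl cyclase and carries the beta-adrenergic response of the heart, Gi inhibits the cyclase and carries the vagal response, Gq and G11 activate phospholipase C beta, and G12 and G13 activate exchange factors of RhoA. Gnao1 encodes G alpha o, the most abundant alpha subunit of the nervous system, which occurs in the heart as well.

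The last 30 coding bases of each subunit are printed because they encode the tail that docks into the receptor and part the classes. Capitals mark a cysteine codon at the fourth place from the end, where pertussis toxin modifies the protein. The bases come from GENCODE transcripts of mm10.
Gnao1: gccaacaatctccggggcTGCggcttgtac
Gnai1: aagaataacctaaaagacTGTggtctcttc
Gnai2: aagaacaacctgaaggacTGTggcctcttc
Gnai3: aaaaacaacttaaaggaaTGTgggctttat
Gnaz: cagaacaatctcaagtacatcggcctttgc
Gnas: cgcatgcatctccgccaatacgagctgctc
Gnaq: cagctgaacctgaaggagtacaatctggtc
Gna11: cagctgaacctgaaggagtacaacctggtg
Gna12: caggagaacctgaaagacatcatgctgcag
Gna13: catgacaacctgaagcagctcatgctgcag

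The cysteine codon was present in 4 of the 10 genes, Gnao1 and the 3 Gnai genes, and Gnaz, which is grouped with Gi but escapes the toxin, lacked it. Both genes that were higher in the knockout therefore belong to the 4 with the codon, whereas Gnai2 and Gnai3 carry it and differed by at most 0.02 on the log2 scale. Over the whole coding sequence Gnao1 was 69.6% identical to Gnai2, 69.0% to Gnai1 and 67.0% to Gnai3. Gnai1 and Gnai2 shared 78.7% and Gnaq and Gna11 80.5%, the highest of the 45 pairs, while Gna13 and Gnaz shared 56.8%, the lowest. The longest run of identical bases between transcripts of any 2 members was 38, between Gnaq and Gna11.

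Promoter windows, from 250 bases before to 50 bases after the start, were found in RefSeq (GRCm38.p6) for 8 of the 10 genes, the others being Gnai2 and Gnaz. The windows of the 2 members with higher levels are shown 5′ to 3′ on the gene's own strand, with capitals for GC boxes (GGGCGG on either strand).
Gnao1, chr8:93810588-93810887, plus strand: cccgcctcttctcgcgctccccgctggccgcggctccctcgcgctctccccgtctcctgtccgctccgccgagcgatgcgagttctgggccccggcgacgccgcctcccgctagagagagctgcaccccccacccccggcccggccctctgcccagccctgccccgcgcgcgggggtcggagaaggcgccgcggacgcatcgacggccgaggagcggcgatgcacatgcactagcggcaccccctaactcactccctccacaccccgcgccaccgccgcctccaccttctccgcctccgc
Gnai1, chr5:18360364-18360663, minus strand: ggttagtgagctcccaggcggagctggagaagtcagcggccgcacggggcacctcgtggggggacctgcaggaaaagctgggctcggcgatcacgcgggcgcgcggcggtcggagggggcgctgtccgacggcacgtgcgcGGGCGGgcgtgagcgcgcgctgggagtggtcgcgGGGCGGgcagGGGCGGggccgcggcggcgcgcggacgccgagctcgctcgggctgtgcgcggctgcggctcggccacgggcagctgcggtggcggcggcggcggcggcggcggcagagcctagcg

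Both windows are rich in G and C, at 76.3% for Gnao1 and 80% for Gnai1, against a median of 52.7% over the promoters of 27025 genes. This is common in the family: 7 of the 8 genes with a window had one above the 75th percentile, among them Gna13 (76.7%), Gnaq (75%) and Gna11 (75%), which were not called. The Gnao1 window held no GC box and the Gnai1 window held 3, while 35.9% of all promoters held at least 1. The Gna12 window held 7. Neither the TATA box (TATAAA, in 14.2% of all promoters) nor the cAMP response half-site (TGACG, in 21.0%) occurred in the Gnao1, Gnai1 or Gna12 window, and the E-box (CACGTG, in 7.24%) occurred once, in Gnai1. A match is a run of letters and not a measured binding site.

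The Gi/o class held the largest difference. Gnao1 lies on chromosome 8 of mm10, from 93810838 to 93969388 on the plus strand, with 11 exons in the counting annotation, none of which overlaps an exon of another gene. Normalised read counts of Gnao1 came to 5.7, 7.1, 4.5, 3.9 and 4.1 CPM in heterozygotes 1 to 5, and 107.9, 70.3, 73.2, 45.5 and 41.9 CPM in knockouts 1 to 5. Each knockout was above each heterozygote, and the lowest knockout was several times the highest heterozygote. These levels rest on 35 to 135 reads per heterozygote and 443 to 1036 reads per knockout. The means were 5.06 ± 1.34 and 67.7 ± 26.5 CPM (SD, n = 5 each), and the fitted log2 fold change was 3.73 (SE 0.266). Leaving out single samples gave 3.50 to 3.86, and the other settings gave 3.61 to 3.81. By size of the log2 fold change Gnao1 ranked 21 from the top among all 11870 tested genes, and 7 among the 8369 that averaged 10 CPM or more. These ranks restate the rule that chose the family. Gnao1 also reached an average of 10 CPM only through its knockout values.

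Because Gnao1 is a neuronal gene, neuronal markers were set beside it. Among these markers, Syt1 and Chrna3 had 0 counts in all 10 samples, and Snap25, Th and Prph never exceeded 3 counts. The summed neuronal level was 21.1 to 31.3 CPM in heterozygotes and 32.6 to 35.1 CPM in knockouts, without overlap. This sum was above Gnao1 itself in each heterozygote and below it in each of the 5 knockouts. The higher sum was carried by Uchl1, a ubiquitin hydrolase and the most abundant of the neuronal markers. Uchl1 was higher in the knockout (12.8 to 25.7 CPM, adjusted p = 0.00274). Dbh, the enzyme of noradrenaline synthesis, was lower (9.60 to 5.81 CPM, adjusted p = 0.0467). Stmn2, the last of the 3 tested neuronal markers, was fitted lower and did not pass (log2 fold change -0.46, adjusted p = 0.319). Schwann cell markers summed to 2.66 to 4.49 CPM in heterozygotes and 2.93 to 6.17 CPM in knockouts. Atrial markers, for atrial cells in the sort, reached 350 CPM in knockout 5 and 84.96 CPM in knockout 1 but 19.2 to 20.01 CPM in the other 3 knockouts, against 8.56 to 73.6 CPM in heterozygotes. Knockout 5, with the highest atrial sum, had the lowest Gnao1 of the knockouts, and knockout 1, with the next highest, had the highest Gnao1. Of the 4 tested atrial markers only Nr2f2 passed, and it was lower in the knockout (log2 fold change -0.85, adjusted p = 0.0158). Myl7, Myl4 and Sln were fitted higher and did not pass. Mural cell markers summed to 111 to 161 CPM in heterozygotes and 165 to 242 CPM in knockouts. The difference was carried by Cspg4, from 37.0 to 132 CPM (adjusted p = 1.23e-06), and the other 3, Myh11 (-0.65), Pdgfrb (-0.33) and Notch3 (-0.34 on the log2 scale), were fitted lower and did not pass. For none of these lists was it tested whether such cells have a part in the Gnao1 values.

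Gnai1, one of the 3 inhibitory subunits proper, lies on chromosome 5 from 18265135 to 18360413 on the minus strand. Its level was 23.6, 16.1, 17.4, 26.2 and 19.7 CPM in the heterozygotes and 30.6, 33.9, 33.3, 27.6 and 28.6 CPM in the knockouts. The groups did not overlap, although heterozygote 4 was close to knockout 4. The means were 20.6 ± 4.23 and 30.8 ± 2.78 CPM, with a log2 fold change of 0.57 (SE 0.137).

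Gnai2, the main inhibitory subunit of the cardiomyocyte (chromosome 9, 107614138 to 107635342, minus strand), did not differ beyond its spread. It stood at 189.5, 250.6, 252.6, 259.8 and 206.9 CPM in the heterozygotes and at 230.2, 229.6, 220.3, 262.2 and 225.9 CPM in the knockouts, with a log2 fold change of 0.01 (SE 0.104). Gnai3 (chromosome 3, 108107299 to 108146114, minus strand) ranged from 19.2 to 42.0 CPM in heterozygotes and from 25.9 to 32.4 CPM in knockouts (0.02, SE 0.166). Its heterozygote values spread more widely than its knockout values, which lay inside their range. Gnaz (chromosome 10, 74967231 to 75015877, plus strand) had 2, 0, 5, 2 and 1 counts in the heterozygotes and 3, 4, 0, 11 and 19 in the knockouts. It did not reach the minimum count for the fit, and most of these values are at or under a floor of 3 counts.

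Levels of different genes were compared per kilobase of exon. The length covers all exons of a gene in the counting annotation, so shares and order between genes depend on that annotation. Summed in this way, the Gi/o class stood at 122 ± 15.3 CPM per kilobase in heterozygotes and 135 ± 6.72 in knockouts. Gnao1 supplied 0.544% ± 0.164 of that sum in heterozygotes, between 0.356% and 0.725%, and 6.50% ± 2.5 in knockouts, between 4.07% and 10.1%. Gnai2 remained the main Gi/o transcript, at 86.9% and 79.6%. Gnai1 supplied 5.34% and 7.17%. The Gi/o share of all alpha subunit transcripts was 25.5% ± 3.06 in heterozygotes and 29.0% ± 1.44 in knockouts, a difference on the order of the heterozygote spread.

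**Figure D1:**
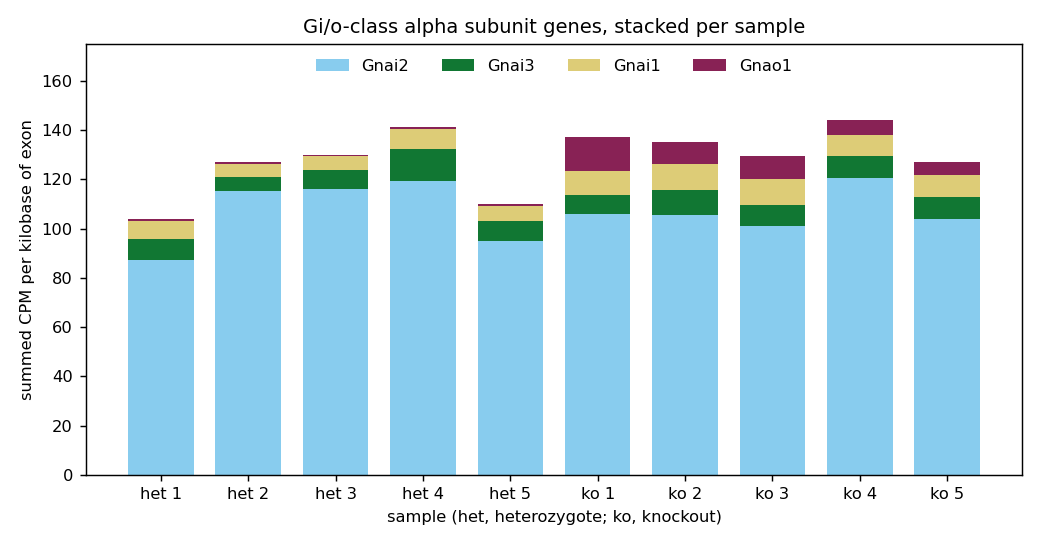
Stacked levels of the 4 Gi/o-class genes in CPM per kilobase of exon, 1 bar per sample, on an axis from 0. Gnai2 fills most of each bar, and the Gnao1 segment, a thin line in the heterozygotes, is 4.07% to 10.1% of the class in the knockouts. Gnaz is left out, being too low to draw.

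The Gs class has 1 member here, Gnas, the stimulatory subunit behind the adrenergic receptors. It lies on chromosome 2 from 174284320 to 174346742 on the plus strand, and 111 of its exon bases are shared with the antisense gene Nespas. Counting did not use strand, so reads of the pair cannot be told apart there. Gnas stood at 1500.6, 1837.1, 1677.4, 1501.6 and 1525.4 CPM in the heterozygotes and at 1723.8, 1590.3, 1556.6, 1510.4 and 1375.9 CPM in the knockouts. The groups overlapped, with heterozygote 2 the highest and knockout 5 the lowest (log2 fold change -0.05, SE 0.0891). Gnas made up 55.1% of the summed alpha subunit level per kilobase in heterozygotes and 54.9% in knockouts. These shares count all 19 annotated exons of Gnas, 6059 bases, without separating the form that encodes the Gs subunit.

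In the Gq/11 class, which drives inositol phosphate and calcium signals, Gna11 (chromosome 10, 81528732 to 81545046, minus strand) was the main transcript, at 88.5% of the class per kilobase in heterozygotes and 88.8% in knockouts. It ranged from 94.2 to 138.9 CPM in heterozygotes and from 94.4 to 110.4 CPM in knockouts (log2 fold change -0.13, SE 0.107). Gnaq (chromosome 19, 16132831 to 16387453, plus strand) was at 25.3, 19.8, 24.6, 26.4 and 26.2 CPM in the heterozygotes and at 18.1, 22.0, 20.6, 26.7 and 23.5 CPM in the knockouts (-0.14, SE 0.125). Both genes overlapped between the groups.

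In the G12/13 class the levels of the pair parted. Gna12 (chromosome 5, 140759944 to 140830431, minus strand) stood at 105.3, 109.7, 100.6, 57.3 and 86.3 CPM in the heterozygotes and at 59.3, 75.7, 58.0, 49.9 and 67.1 CPM in the knockouts. Heterozygote 4 lay among the knockouts, and the other 4 heterozygotes lay above all of them. The means were 91.8 ± 21.2 and 62.0 ± 9.78 CPM, and the log2 fold change was -0.57 (SE 0.161). Heterozygote 4 had the highest endothelial marker sum of all samples, 665 CPM, and with those markers as a covariate the log2 fold change of Gna12 was -0.87. Those markers were themselves fitted lower in the knockout, and the part of endothelial cells in the Gna12 values was not tested. Gna12 no longer passed the threshold once heterozygote 1, heterozygote 2, knockout 1, knockout 3 or knockout 4 was left out (5 of the 10 such fits). Its log2 fold change over the 10 fits ran from -0.70 to -0.49. Gna13 (chromosome 11, 109362794 to 109401369, plus strand, with 151 exon bases shared with the opposite-strand gene Gm11696) ranged from 35.0 to 47.5 CPM in heterozygotes and from 39.0 to 48.5 CPM in knockouts (0.12, SE 0.107). Gna12 supplied 87.9% of the class per kilobase in heterozygotes and 82.4% in knockouts.

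Of the 10 members, 9 passed the filter on low counts, and 3 of these were called, which here means an adjusted p under 0.05 over all genes with the quasi-likelihood test of edgeR. The 3 were Gnao1 and Gnai1, higher, and Gna12, lower. Over all 11870 tested genes 18.9% were called, 10.2% as higher and 8.64% as lower. The groups did not overlap in 2 members, Gnao1 and Gnai1, and in 14.7% of all tested genes. Since the same contrast chose the family, nothing is read from these shares. The median log2 fold change was 0.01 over the 9 tested members and 0.00 over all tested genes.

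Ordered by level per kilobase in heterozygotes, the genes ran from Gnas (265) through Gnai2 (107), Gna12 (48.8), Gna11 (34.3), Gnai3 (8.74), Gna13 (6.47), Gnai1 (6.45) and Gnaq (4.34) to Gnao1 (0.654) and Gnaz (0.0858). The neighbours Gna12 and Gna11, Gnai3 and Gna13, and Gna13 and Gnai1 overlapped between samples. In the knockouts Gnao1, at 8.76, had moved up into the middle of the order, where Gnai1 (9.64), Gnai3 (8.89), Gnao1 and Gna13 (7.0) each overlapped the next. Gnas (256), Gnai2 (107), Gna12 (33.0) and Gna11 (31.4) stayed above them, the last 2 overlapping, and Gnaq (3.94) was below. The sum over the family was 482 ± 40.6 CPM per kilobase in heterozygotes and 466 ± 24.8 in knockouts.

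**Figure D2:**
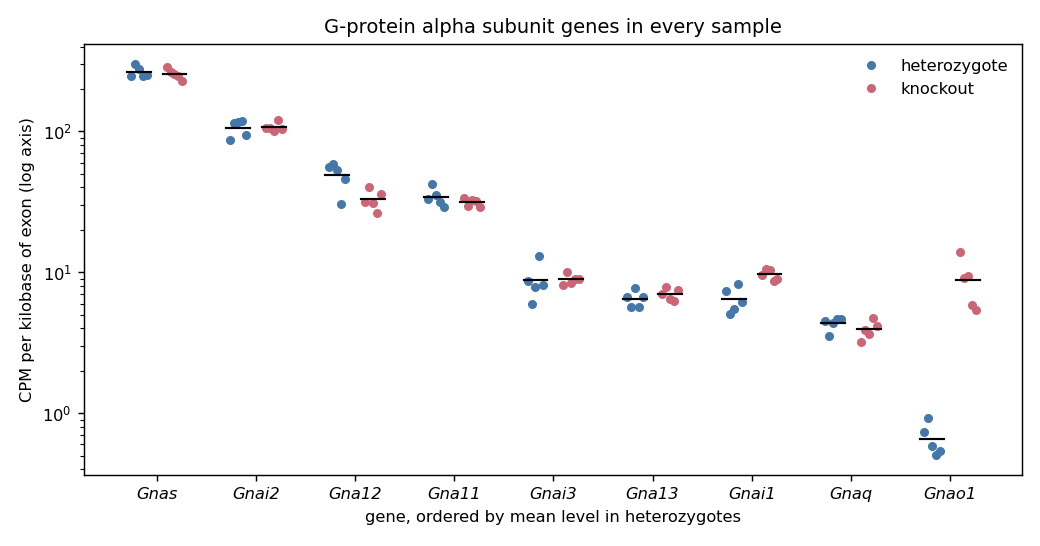
Level of 9 alpha subunit genes in CPM per kilobase of exon on a log axis, 1 point per sample, with black lines at group means (5 heterozygotes, 5 knockouts). Gnao1 is the lowest of the 9 in heterozygotes (mean 0.654) and lies beside Gnai1, Gnai3 and Gna13 in knockouts (mean 8.76). Gnaz, with counts of 0 in both groups, cannot be drawn on this axis.

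The genes whose profile over the 10 samples was most like that of Gnao1 were sought by the root mean square difference of log2 CPM, each gene centred on its heterozygote mean, among 8368 other tested genes that averaged 10 CPM or more. The nearest were Adamts8 (difference 0.387), a secreted metalloprotease, Casq1 (0.446), the calsequestrin of fast skeletal muscle, Mmp23 (0.464), a metalloprotease, Nppa (0.514), the atrial natriuretic peptide, Shisa4 (0.520), and Mybpc2 (0.533), the fast skeletal myosin-binding protein C. The same 6 were nearest with a prior count of 0.25 in place of 1, and 3 of them (Casq1, Mybpc2 and Nppa) when each profile was divided by its own range. Casq1 had the order of Gnao1 in the knockouts except for the samples numbered 2 and 3, with 1229, 811, 779, 491 and 424 CPM in knockouts 1 to 5. In the heterozygotes it stood at 46.4, 54.8, 36.9, 22.9 and 27.9 CPM. The measure rewards a group difference of the same size, so it is mostly set by the contrast between the groups. The limit of 10 CPM adds to this. Adamts8, Mmp23 and Shisa4, like Gnao1, averaged less than that in heterozygotes and passed it only through their knockout values.

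**Figure D3:**
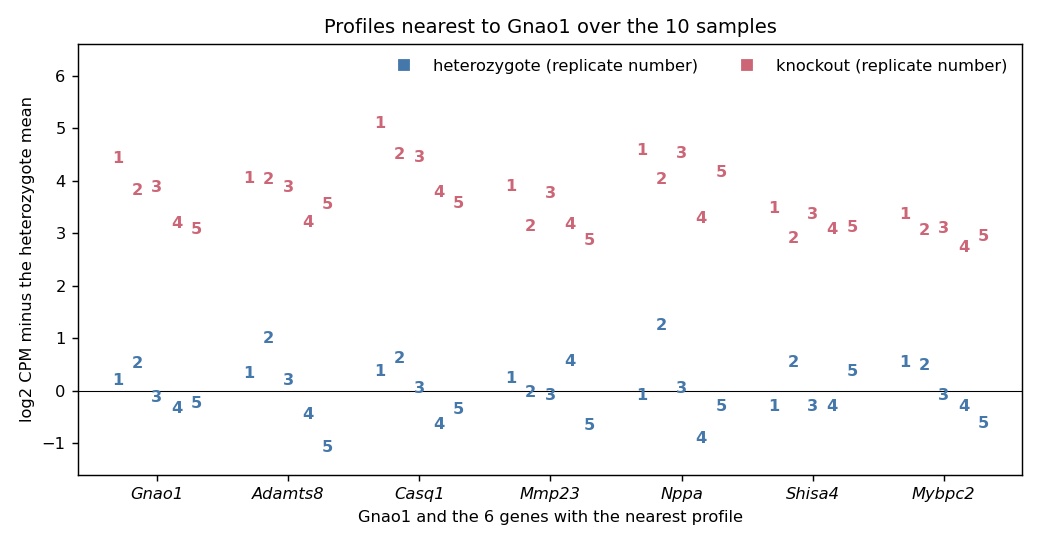
Log2 CPM minus the heterozygote mean for Gnao1 and its 6 nearest genes, with each sample drawn as its replicate number. Knockout 1 is the highest knockout for Gnao1 (107.9 CPM) and for Casq1 (1229 CPM), and in both knockouts 4 and 5 are the lowest.

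The remaining pathway was read from 12 lists of 160 genes, of which 100 were tested. They hold 15 genes called higher and 8 called lower, or 23% of those tested, against 18.9% of all genes, with a median log2 fold change of -0.07. With endothelial marker expression as a covariate 5 of these 23 calls held, those of Rgs7, Prkcd, Prkca, Grk5 and Drd2. The other 18 were lost, among them every call of the cyclic AMP branch, the G12/13 effectors and the Gs-coupled receptors. The part of endothelial cells in the lost calls was not tested. Adjusted p-values below are those of edgeR over all tested genes.

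Of the other alpha subunits only Gnal, an olfactory relative of Gnas, had enough counts, and it did not pass the test (9.55 ± 1.66 and 10.3 ± 1.94 CPM, adjusted p = 0.733). The transducins Gnat1, Gnat2 and Gnat3 and the Gq relatives Gna14 and Gna15 had at most 5 counts in any sample. None of 5 tested beta and 6 tested gamma genes was called. Gnb1, one of the 2 most abundant beta genes, averaged 179 CPM in heterozygotes and 155 CPM in knockouts (log2 fold change -0.20, adjusted p = 0.499), and Gnb2 averaged 154 and 150 CPM (-0.04, adjusted p = 0.845). The summed beta level was 198 ± 28.5 CPM per kilobase in heterozygotes and 180 ± 7.41 in knockouts (exact two-sided permutation p = 0.246, adjusted over the 2 sums 0.492, smallest possible p 0.00794). Without heterozygote 1 the difference was -27.0 CPM per kilobase, with an exact permutation p of 0.0159. This p was not adjusted over the 2 sums, and it is the smallest the test can give without that sample. The summed gamma level was 181 ± 42.8 and 167 ± 24.5 CPM per kilobase (exact permutation p = 0.571, adjusted 0.571), and without heterozygote 4 its difference turned to 2.40.

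Among RGS genes, whose products speed the GTPase of alpha subunits, 2 of 10 tested were called, in opposite directions. Rgs7, of the R7 group that acts on the Gi/o class, was 7.6, 8.6, 8.1, 5.3 and 6.2 CPM in heterozygotes and 4.3, 3.2, 2.9, 2.6 and 4.1 CPM in knockouts (adjusted p = 0.00251, log2 fold change -1.06, SE 0.206). All knockouts were below all heterozygotes. Rgs11, of the same group, was higher, with 3.41 ± 1.56 and 8.56 ± 1.51 CPM (1.36, SE 0.265, adjusted p = 0.00255), a call that did not hold with the endothelial covariate (log2 fold change 1.13, adjusted p = 0.0828). Rgs2, which acts mainly on Gq, stood at 170 ± 38.8 and 117 ± 58.4 CPM and did not pass the test (adjusted p = 0.209). It did pass without knockout 4, and with the replicate number as a block. Rgs5 did not pass either (log2 fold change -0.35, adjusted p = 0.395), and its sign turned with the endothelial covariate (0.54, adjusted p = 0.0711). None of the 6 tested regulators of alpha subunits was called, among them the chaperone gene Ric8b (-0.25, adjusted p = 0.13) and Gpsm1 (-0.13, adjusted p = 0.481).

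Of 14 tested genes of the cyclic AMP branch, 4 were called higher and 1 lower. Adcy6, a main cardiac adenylyl cyclase that Gi inhibits, rose from 97.4 ± 8.06 to 122 ± 6.88 CPM with no overlap (log2 fold change 0.33, adjusted p = 0.0159). Adcy7 rose from a low level, 1.14 to 2.79 CPM (1.30, adjusted p = 0.0117), and Adcy4 fell from 15.4 to 9.27 CPM (-0.72, adjusted p = 0.0171). The protein kinase A subunit genes Prkar1a (0.33, adjusted p = 0.0262) and Prkacb (0.34, adjusted p = 0.0402) were higher, but their calls were lost in 4 and 8 of the 10 fits without 1 sample. No gene of this branch was called with the endothelial covariate. Prkaca, the main catalytic subunit, averaged 570 and 497 CPM and did not pass the test (adjusted p = 0.253).

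Of 13 tested Gq effectors, 5 were called higher and 0 lower. The kinase genes Prkcd and Prkca, of protein kinase C delta and alpha, rose in all 5 knockouts beyond all heterozygotes. Prkcd went from 9.03 ± 0.785 to 17.6 ± 3.79 CPM (log2 fold change 0.95, adjusted p = 0.000869) and Prkca from 47.6 ± 5.44 to 69.6 ± 2.72 CPM (0.55, adjusted p = 0.00109). The exchange factor genes Trio (0.72, adjusted p = 0.00249) and Kalrn (0.71, adjusted p = 0.00559) and the calcium release channel gene Itpr1 (0.57, adjusted p = 0.0154) also rose, and Plcb4 did not pass (0.29, adjusted p = 0.0784). Of 7 G12/13 effectors, 2 exchange factor genes for RhoA were called higher: Arhgef12, from 76.9 to 108 CPM (0.49, adjusted p = 0.00234), and Akap13, from 82.6 to 115 CPM (0.47, adjusted p = 0.0141). Rhoa itself (-0.12, adjusted p = 0.362) and its kinase Rock2 (0.28, adjusted p = 0.204) did not pass.

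Among 12 tested beta-gamma effectors and desensitising kinases, 2 were called higher and 1 lower. Grk5, a receptor kinase of the heart, had the largest rise of the 12 lists, from 5.6, 8.6, 8.2, 7.0 and 5.6 CPM in heterozygotes to 32.2, 24.9, 27.2, 17.9 and 19.4 CPM in knockouts (adjusted p = 1.98e-05, log2 fold change 1.81, SE 0.190). No knockout came near the heterozygotes, and the call held in all 19 alternative settings. Adrbk2, also called GRK3, rose from 21.2 to 33.6 CPM (0.66, adjusted p = 0.00491), and Grk6 fell (-0.46, adjusted p = 0.0122). Adrbk1, the GRK2 gene (-0.23, adjusted p = 0.214), and Kcnj5, a subunit of the potassium channel that beta-gamma opens (0.17, adjusted p = 0.438), did not pass.

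Receptors that couple to Gi/o gave 1 called higher and 1 lower of 8 tested. Adora1, the adenosine A1 receptor of the heart, rose from 53.6 ± 20.8 to 95.2 ± 12.8 CPM (log2 fold change 0.83, adjusted p = 0.00989), although heterozygote 2, at 87.8 CPM, reached the knockout range. The Adora1 call did not hold with the endothelial covariate. Chrm2, the muscarinic receptor of the vagal response, averaged 73.1 and 96.7 CPM and did not pass (0.40, adjusted p = 0.122), nor did S1pr1 (0.38, adjusted p = 0.154). S1pr1 did pass in 2 of the 9 settings that kept all samples, over which its log2 fold change reached 0.93, and in 1 of the 10 fits without 1 sample. The dopamine receptor gene Drd2 was lower at a low level (-1.41, adjusted p = 0.0183), a call that limma voom did not make. Of 8 Gs-coupled receptors, Crhr2 fell from 40.8 to 23.2 CPM (-0.82, adjusted p = 0.00388) and Ptger4 fell (-1.29, adjusted p = 0.0477), a call lost in 8 of the 10 fits without 1 sample, while Adrb1, the main beta-adrenergic receptor, did not pass (-0.09, adjusted p = 0.724). Of 10 Gq-coupled receptors, the angiotensin receptor gene Agtr1a fell from 49.3 to 32.0 CPM (-0.63, adjusted p = 0.00636) and P2ry1 fell (-0.70, adjusted p = 0.0455), a call lost in 6 of those fits. Adra1b did not pass (-0.14, adjusted p = 0.482).

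**Figure D4:**
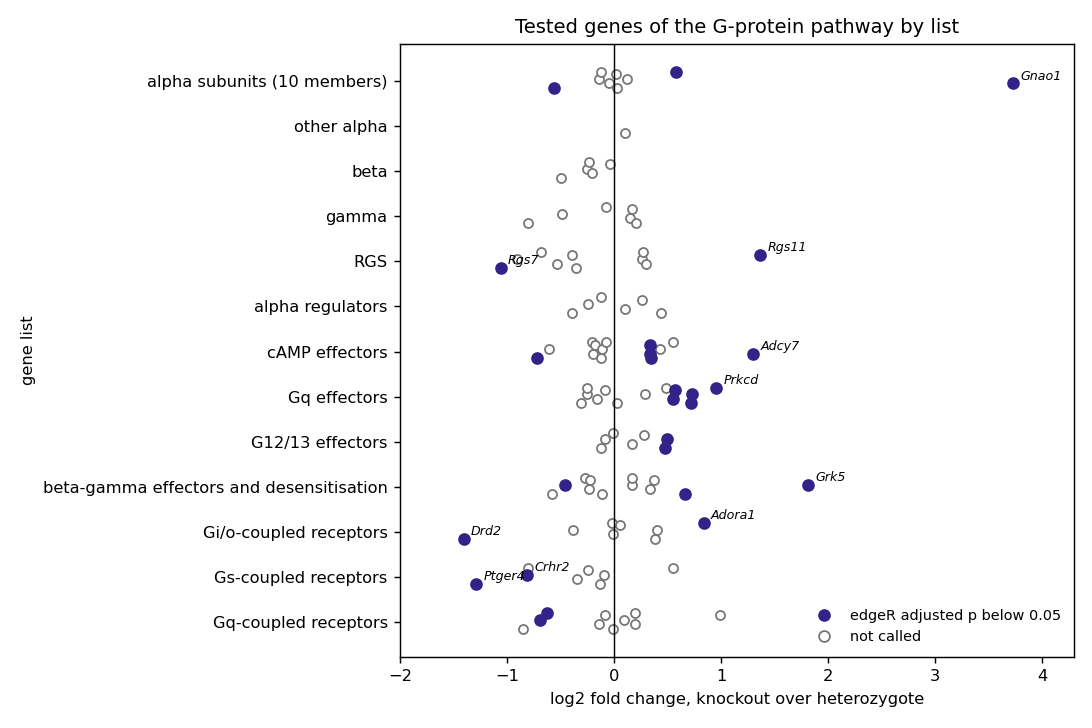
Log2 fold change, knockout over heterozygote, of each tested gene, with 1 row per list and the 9 tested members on top, where filled points had an edgeR adjusted p below 0.05. Gnao1 at 3.73 lies beyond every gene of the 12 lists, whose highest is Grk5 at 1.81, and no beta or gamma gene is filled.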

How the data were processed

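The deposited values are whole-number counts per gene, which the authors made with featureCounts 1.5.1 per the file headers. The submitters' notes give Subread 1.5.2 instead, so the counting version is uncertain. The submitters' processing notes name mm10 and STAR 2.5.3a, while the header's alignment names are the default of another aligner, so the aligner is uncertain. Of 14 count columns, 10 match samples by name and 4 were not used. Per the labels' protocols, 10 ng RNA was amplified by 8 PCR cycles. The members and gene lists were chosen with earlier results of these data known.

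Counts were scaled with TMM, filtered with filterByExpr (minimum count 10, total 15; 11870 genes left) and fitted with edgeR 4.0.16 (R 4.3.3, quasi-likelihood F test, Benjamini-Hochberg over all tested genes), with no covariate. Log2 CPM uses a prior count of 1. Summed levels were compared by exact permutation over 252 arrangements (scipy 1.17.1). Alternatives were DESeq2 1.42.0, limma 3.58.1 voom, other scalings and filters, an endothelial covariate, a replicate block and leaving out each sample. Named genes are Actn2, the members, called genes of each list (up to 4 per direction), its 2 most abundant genes, and the 6 profiles nearest to Gnao1. The neuronal, endothelial, atrial and other marker genes are named only beside results, and a neuronal marker is not reported here. The fit was tested on simulated data. Replicate pairs differed by 10.8 to 37.5 chi-square per degree of freedom, so none was a repeat deposit.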

Additional observations from a re-analysis of the deposited data

Results flagged for a closer look

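Of 34 groups of 5 samples examined for a sample standing apart from the other 4, 3 had one, and chance gives about 1 in 20. Gnai2 was highest in knockout 4, at 262.2 CPM, where the next knockout stood at 230.2 CPM. Gnaq was lowest in heterozygote 2, at 19.77 CPM, where the next stood at 24.6 CPM. Nppa was highest in heterozygote 2, at 224.5 CPM, where the next stood at 97.4 CPM.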

How the results depend on the processing

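With the endothelial covariate, calls over all genes fell from 2241 to 876 (454 higher, 422 lower, 840 of them shared) and calls in the 12 lists from 23 to 8, with the 3 called members still called, and the cause was not tested. Leaving out 1 sample gave 1699 to 2258 calls, a difference of the summed beta level of -27.0 (without heterozygote 1) to -8.43, and of the summed gamma level of -23.9 to 2.40 (reversed without heterozygote 4). Library totals alone made 68.9% of calls higher, against 54.3%, and moved the median of all genes to 0.08. The fitted signs of Gnai2, Gnai3 and Gnas changed between settings. Over 48 named genes outside the family and 19 settings, 909 combinations gave 51 lost calls, 18 of them with the endothelial covariate, and 8 gained calls. The fitted sign of 6 of these genes turned in 9 combinations, none of them a called gene (Adrb1, Gnb2, Gng5, Gng11, Kcnj5 and Rgs5). Same-numbered samples correlated at -0.06 to 0.19, on both sides of the threshold of 0.1 set for pairing. Whether they share more than a number was not settled. With the number as a replicate block there were 2182 calls and the same 3 members, and Rgs2 passed (-0.64, adjusted p = 0.0119), 4 of the 10 samples correlating best with their own number. Depth limits Gnaz and the low receptors.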
